A study of Homo sapiens with 28 samples.

Results

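Heat shock proteins and cytosolic chaperones were followed through 10 listed genes: HSPA8, HSPA4, HSPH1, DNAJB1, DNAJA1, HSPB1, HSPD1, HSPE1, HSP90AA1 and BAG3. A probe set was taken as a member where its annotated gene symbol was one of these. Probe sets that name a single gene were found for 9 of the 10 genes, 19 probe sets in all, and these 9 genes stand among 8024 genes tested. HSPA8 had 3 probe sets, each annotated to HSPA8 together with SNORD14C and SNORD14D, small nucleolar RNA genes that lie in its introns. HSPA8 is therefore described by those shared probe sets and is not counted. The signals come from A549 and H1299, human non-small cell lung cancer cell lines, on 28 one-colour Affymetrix arrays. Each line received azacitidine or decitabine at 0.3, 1 or 3 µM for 48 h, or DMSO as the vehicle, and fresh drug went into the medium every 24 h. That makes 14 groups of 2 arrays, 7 groups in each line, and each line is compared with its own vehicle. The labels do not say that the 2 arrays of a group came from separate cultures, and a p below compares a difference with the spread between such arrays, which may be technical. The number of arrays limits the precision. The study set the pair of drugs against each other by their effects on gene expression.

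Chaperones bind unfolded proteins and keep them from clumping. When unfolded proteins build up, the transcription factor HSF1 forms trimers and binds heat shock elements, inverted repeats of GAA units, in front of chaperone genes. HSP70 proteins work with HSP40 proteins that bring them clients and with HSP110 proteins that exchange their nucleotide, HSP90 finishes kinases and receptors, small heat shock proteins hold unfolded chains, and the HSPD1 and HSPE1 chaperonin folds proteins inside mitochondria. Azacitidine and decitabine differ by a hydroxyl group on the sugar. The ribonucleoside azacitidine enters RNA and, after reduction, DNA, whereas the deoxyribonucleoside decitabine enters DNA, where both trap DNA methyltransferases.

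The sequences in front of the members are shown because the members share a regulator and because the drugs act on cytosine methylation, which these arrays do not measure. RefSeq promoter windows on GRCh38.p14 were matched for 10 of the 10 genes, 14 windows of 250 bases before a gene start. An element of 2 units was searched on both strands as GAANNTTC or TTCNNGAA, which each read the same on both strands, and one of 3 units as GAANNTTCNNGAA or TTCNNGAANNTTC, each the reverse complement of the other. The forms can overlap, since each 3-unit match holds a match of both 2-unit forms. A 2-unit match lay in 6 of the 14 windows, those of 6 genes, against 11.6% of 35116 RefSeq windows of the same length. A 3-unit match lay in 3 of the 14, against 0.441%. The 3-unit matches, in capitals, with the bases around them and the position counted back from the gene start, were as follows.
HSPA8 (minus strand, chr11:123062350-123062370, bases -230 to -218): gcttGAAAGTTCCAGAAcgct
HSPA8 (minus strand, chr11:123062175-123062195, bases -55 to -43): ccccTTCTGGAAGGTTCtaag
HSP90AA1 (minus strand, chr14:102087116-102087136, bases -88 to -76): gttcTTCCGGAAGGTTCggga
HSPD1 (minus strand, chr2:197500064-197500089, bases -245 to -228): cattTTCTGGAAAGTTCTGGAAccga

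The HSPD1 stretch holds 2 overlapping 3-unit matches. HSPD1 and HSPE1 are neighbours that point away from each other. The 2 RefSeq starts of HSPD1 lie 538 and 104 bases from that of HSPE1. The windows of the farther HSPD1 start and of HSPE1 are shown because this pair did not move alike by the brightest probe sets. A dimmer HSPD1 probe set did fall with 3 µM azacitidine in H1299, as HSPE1 did. HSPB1 is shown because its signal moved most among the members. Capitals mark matches to a heat shock element.
HSPB1 (plus strand, chr7:76302423-76302672): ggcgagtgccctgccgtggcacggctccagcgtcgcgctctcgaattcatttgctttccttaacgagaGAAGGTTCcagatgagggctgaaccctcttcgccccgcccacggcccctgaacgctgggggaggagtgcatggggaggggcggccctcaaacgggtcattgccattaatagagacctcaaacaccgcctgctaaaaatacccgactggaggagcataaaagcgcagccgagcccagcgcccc
HSPD1 (minus strand, chr2:197499841-197500090): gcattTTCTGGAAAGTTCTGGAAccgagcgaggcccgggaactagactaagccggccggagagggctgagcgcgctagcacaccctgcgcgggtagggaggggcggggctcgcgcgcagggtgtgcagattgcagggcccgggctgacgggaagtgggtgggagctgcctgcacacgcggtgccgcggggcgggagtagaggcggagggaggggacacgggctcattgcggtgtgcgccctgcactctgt
HSPE1 (plus strand, chr2:197500129-197500378): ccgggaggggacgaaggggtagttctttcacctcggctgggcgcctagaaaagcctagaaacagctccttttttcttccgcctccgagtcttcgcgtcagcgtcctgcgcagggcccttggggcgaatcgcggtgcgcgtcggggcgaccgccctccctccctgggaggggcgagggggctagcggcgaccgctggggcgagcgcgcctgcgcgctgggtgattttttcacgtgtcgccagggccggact

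The HSPB1 window held 1 match, of 2 units, at bases -182 to -175, and none of 3 units. The HSPE1 window held neither form, and nor did the window of the nearer HSPD1 start. The HSPD1 stretch with 3-unit matches lies between the farther HSPD1 start and the HSPE1 start. It is thus in front of HSPE1 too, just outside the 250 bases searched there. The HSPB1 window held 19 CpG dinucleotides, where the median of all windows was 11 and the quartiles were 3 and 23. This count was not high among the members, whose other windows held from 14 (HSPH1) to 44 (an HSP90AA1 window), with 37 for BAG3 and 30 for HSPE1. Matches of 2 units alone also lay in front of DNAJA1 (1 match) and DNAJB1 (2 matches in 1 of its 3 windows), and none lay in the windows of BAG3, HSPA4 and HSPH1. A match is a run of letters and is no evidence of binding.

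The deposited arrays share a scaling target: the 2% trimmed mean lay between 500.1249 and 500.1594 on every array. The median signal ranged from 92.7 to 123 and the 25th percentile from 18.0 to 28.3. Signals were taken as log2(signal + 32), and a gene was represented by its brightest probe set among those above the median of their array on 2 or more arrays. Differences were tested with limma over all 8024 genes, and "rose" and "fell" below mean a Benjamini-Hochberg adjusted p under 0.05. All 19 member probe sets passed the filter, 18 of them above the array median on all 28 arrays, so no member entered through a treated group alone. Of the epithelial markers, the keratins KRT8 and KRT18 were above the median on all 28 arrays. KRT19 was above it on 11 of 14 A549 and 6 of 14 H1299 arrays, and EPCAM on 14 of 14 and 6 of 14. CDKN2A, which A549 is known to lack, was above the median on 0 of 14 A549 arrays and 14 of 14 H1299 arrays by its brightest probe set. No probe set of the leukocyte and endothelial markers PTPRC, CD3E, CD14, PECAM1 or CDH5 passed the median on any array, VWF passed it on 1 array, and 1 of the ITGAM probe sets passed it on 4 A549 and 14 H1299 arrays. The summed signal of that marker list lay between 244 and 545. The ratio of the 3′ to the 5′ probe set of ACTB, a sign of RNA integrity, ranged from 3.08 to 6.73, and that of GAPDH from 0.926 to 1.21. The RNA is from whole cultures, in which fewer cells of a kind and less RNA per cell cannot be told apart.

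Against vehicle, HSPB1 changed most among the members, and it fell with azacitidine in A549 and rose with decitabine in H1299. HSPE1 fell with 3 µM azacitidine in both lines, BAG3 fell with both drugs in H1299, DNAJB1 fell at 1 and 3 µM of either drug in A549 and of decitabine in H1299, and HSPH1 rose with decitabine in A549. HSPA4, HSPD1 and HSP90AA1 did not pass against vehicle at any of the doses by their brightest probe sets. At 3 µM the members that passed were 0 higher and 3 lower of 9 with azacitidine in A549, where 38.3% of all genes passed in either direction. They were 1 higher and 1 lower of 9 with decitabine in A549 (all genes 25.8%), 0 higher and 3 lower of 9 with azacitidine in H1299 (all genes 53.9%) and 1 higher and 3 lower of 9 with decitabine in H1299 (all genes 30.9%). The median difference of the 9 members was 0.05, 0.04, -0.13 and -0.03 in that order, beside 0.06, 0.01, 0.08 and -0.01 over all genes. The 6 treated groups of a line share its 2 vehicle arrays.

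At the lower doses fewer genes moved. With azacitidine at 0.3 µM in A549 the members gave 0 higher and 0 lower of 9 (all genes 2.43%), and at 1 µM 0 higher and 2 lower of 9 (all genes 25.2%). With decitabine in A549 they gave 1 higher and 0 lower of 9 at 0.3 µM (all genes 7.69%) and 1 higher and 1 lower of 9 at 1 µM (all genes 16.5%). In H1299 azacitidine gave 3 higher and 0 lower of 9 at 0.3 µM (all genes 5.63%) and 1 higher and 2 lower of 9 at 1 µM (all genes 35.2%). Decitabine gave 1 higher and 1 lower of 9 (all genes 17.6%) and 1 higher and 2 lower of 9 (all genes 23.3%) at those doses. With 9 members these shares are near that of all genes in most comparisons, and the 3 of 9 at 0.3 µM azacitidine in H1299 stand furthest above it. Those 3 are HSPB1, DNAJB1 and DNAJA1. HSPB1 kept its call in 15 of 15 alternatives, whereas DNAJB1 and DNAJA1 each lost theirs in 6 of 15.

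**Figure D1:**
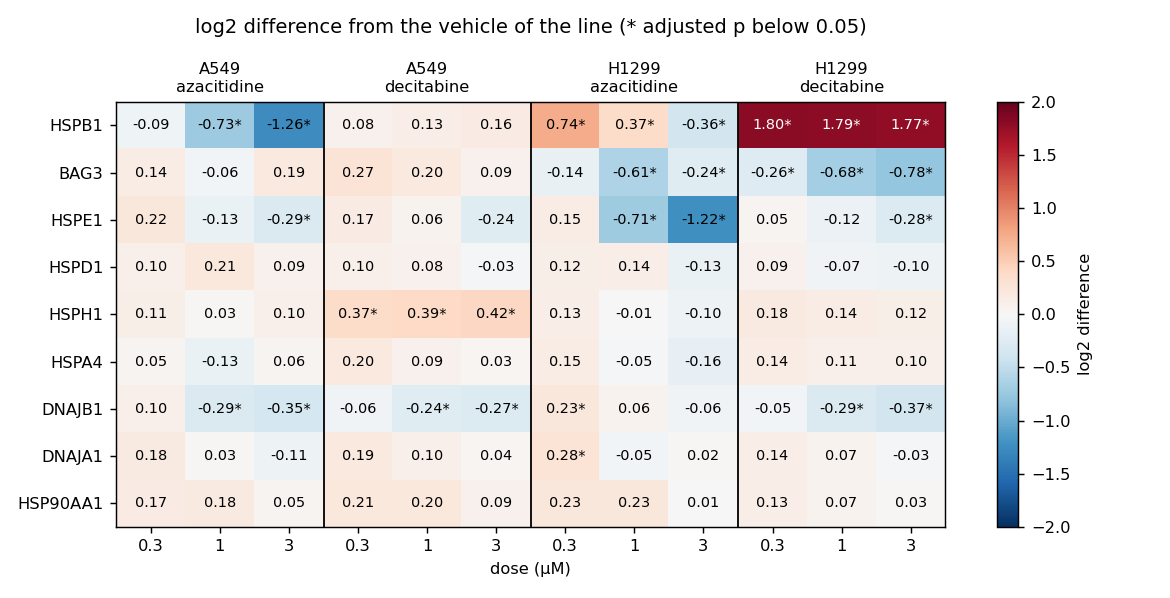
Log2 difference of each of the 9 measured members (rows) from the vehicle of its line, for each line, drug and dose in µM (columns), with red for higher, blue for lower and an asterisk for a limma adjusted p below 0.05. HSPB1 runs from -1.26 with 3 µM azacitidine in A549 to 1.80 with 0.3 µM decitabine in H1299, whereas HSP90AA1 stays between 0.01 and 0.23 and carries no asterisk.

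HSPB1 encodes the small heat shock protein HSP27, which holds unfolded chains and binds actin. In A549 its signal was 4492 and 4858 on the vehicle arrays. It was 4439 and 4329.7 with azacitidine at 0.3 µM, 2619 and 3002 at 1 µM and 1758 and 2115 at 3 µM. Both arrays at 1 and at 3 µM lay below both vehicle arrays, and the 3 µM arrays lay below the 1 µM arrays. The fall was 0.73 on the log2 scale at 1 µM (SE 0.12, 95% interval -0.98 to -0.48, adjusted p = 0.000124) and 1.26 at 3 µM (SE 0.12, 95% interval -1.51 to -1.01, adjusted p = 5.8e-08), and the mean deposited signal at 3 µM was 41.4% of that with vehicle. At 0.3 µM the difference of -0.09 did not pass (adjusted p = 0.772). The decitabine arrays of A549 held 4926 and 4968 at 0.3 µM, 4779 and 5467 at 1 µM and 5483 and 4987 at 3 µM. These lay at or a little above vehicle, by 0.08, 0.13 and 0.16, and none of the 3 passed (at 3 µM 95% interval -0.09 to 0.41, adjusted p = 0.346).

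In H1299 the same probe set was dim, at 190.4 and 230.3 with vehicle, 19.5-fold below A549 on the scale of log2(signal + 32) (-4.28 on the log2 scale, SE 0.12, 95% interval -4.53 to -4.03, adjusted p = 6.32e-18). With decitabine the signal was 853 and 770.3 at 0.3 µM, 789 and 819.9 at 1 µM and 831 and 757 at 3 µM. All 6 decitabine arrays lay far above vehicle and overlapped among the doses. The rise was 1.80, 1.79 and 1.77 (3.42-fold at 3 µM, SE 0.12, 95% interval 1.52 to 2.02, adjusted p = 3.8e-10), still well under the A549 vehicle signal. Folds are on the scale of log2(signal + 32), which understates change at low signal: the mean deposited signal at 3 µM was 377% of vehicle. The azacitidine arrays held 404 and 341 at 0.3 µM, 258 and 305 at 1 µM and 178 and 135 at 3 µM. These went from above vehicle to below it as the dose grew, and the groups did not overlap with vehicle at any dose. HSPB1 rose by 0.74 at 0.3 µM (SE 0.12, 95% interval 0.49 to 0.99, adjusted p = 0.000945) and by 0.37 at 1 µM (adjusted p = 0.0195), and fell by 0.36 at 3 µM (adjusted p = 0.0138). The last 2 calls rested on single arrays: without the first vehicle array of H1299 or the second 1 µM array the rise at 1 µM was 0.25 or 0.26 (adjusted p = 0.208 and 0.2). Without the second vehicle array or the second 3 µM array the fall at 3 µM was -0.25 or -0.20 (adjusted p = 0.173 and 0.252).

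**Figure D2:**
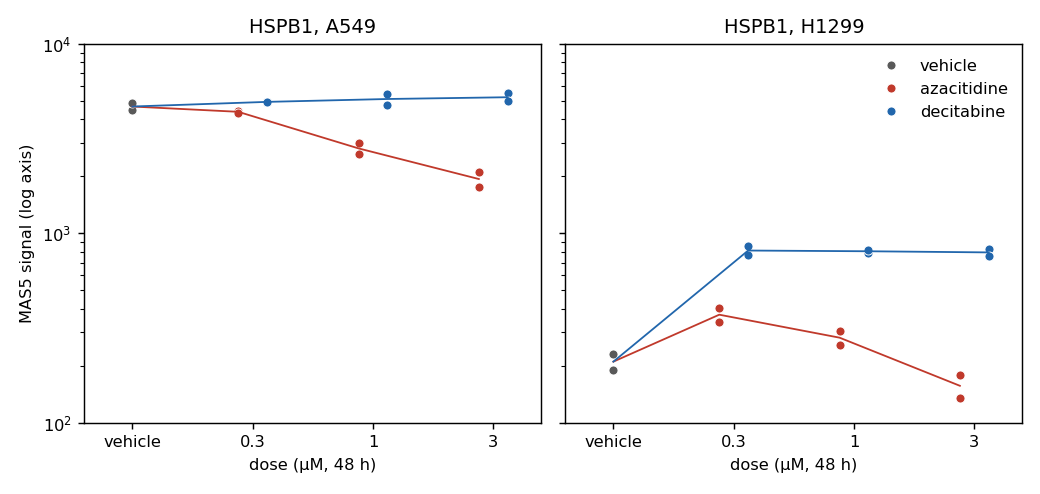
HSPB1 signal (deposited MAS5 signal, log axis) against dose in µM for A549 (left) and H1299 (right), with a point for each array, a line through the group means, and vehicle, azacitidine and decitabine in grey, red and blue. In A549 azacitidine goes down to 1758 and 2115 at 3 µM while decitabine stays level, and in H1299 all 6 decitabine arrays are above 190.4 and 230.3, the vehicle arrays.

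The other small heat shock proteins with a tested probe set were HSPB8, a partner of BAG3, and CRYAB, the lens and muscle crystallin. HSPB8 fell by 0.47 in A549 with 3 µM azacitidine (adjusted p = 0.0477) and rose by 1.15 with 3 µM decitabine (adjusted p = 8.68e-05), and did not pass at 3 µM in H1299. CRYAB did not pass at 3 µM of either drug in either line. KRT8, an epithelial keratin, was the tested gene whose pattern was most like that of HSPB1, with a Pearson correlation of 0.984 over the 28 arrays after the vehicle mean of each line was subtracted (0.966 over the 14 A549 arrays and 0.979 over the 14 H1299 arrays). Those points share arrays and vehicle means, and the correlation is a description. In H1299 KRT8 was 406 and 349 with vehicle and 1009 and 962 with 3 µM decitabine, and with 3 µM azacitidine it differed by -0.19 and did not pass. Like HSPB1 it was high in A549 (6813 and 7602 with vehicle), where it fell by 0.82 with 3 µM azacitidine, and it rose by 1.32 with 3 µM decitabine in H1299. The epithelial markers KRT19 and EPCAM rose with 3 µM decitabine in both lines, by 2.08 and 2.30 in A549 and by 2.35 and 2.51 in H1299. KRT8 did not go with them in A549, where its arrays with 3 µM decitabine (8309 and 7203) overlapped with vehicle. KRT18, the remaining marker of that list, ranged over 8261 to 15648 in A549 and 3369 to 7824 in H1299 across all groups. Whether a change in epithelial character has a part in the HSPB1 result was not tested.

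BAG3 encodes a co-chaperone that binds HSP70 and small heat shock proteins and steers clients to autophagy. In H1299 it was 2684 and 2491 with vehicle. Decitabine gave 2218 and 2078 at 0.3 µM, 1676 and 1531 at 1 µM and 1494 and 1488 at 3 µM, and azacitidine gave 2299 and 2377 at 0.3 µM, 1588 and 1772 at 1 µM and 2220.3 and 2135 at 3 µM. All 12 treated arrays lay below both vehicle arrays, and the lowest azacitidine pair was that at 1 µM, not at 3 µM. With decitabine BAG3 fell by 0.26, 0.68 and 0.78 (at 3 µM SE 0.088, 95% interval -0.96 to -0.60, adjusted p = 7.44e-07). With azacitidine it fell by 0.61 at 1 µM (SE 0.088, 95% interval -0.80 to -0.43, adjusted p = 1.41e-05) and by 0.24 at 3 µM (adjusted p = 0.023). The fall at 0.3 µM decitabine (adjusted p = 0.0408) was lost without any 1 of its 4 arrays, with values of -0.32 to -0.21 and adjusted p of 0.0644 to 0.248. The fall at 3 µM azacitidine was -0.19 without the first vehicle array (adjusted p = 0.158) and -0.22 without the second 3 µM array (adjusted p = 0.119).

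In A549 BAG3 was 2562 and 2182 with vehicle, 2839 and 2586 with 3 µM azacitidine and 2386 and 2657 with 3 µM decitabine. No dose of either drug passed, and the differences ran from -0.06 to 0.27. The difference with 3 µM azacitidine (0.19, adjusted p = 0.0878) passed without the first vehicle array, at 0.31 (adjusted p = 0.0233), as did that with 0.3 µM decitabine (0.27, adjusted p = 0.0646), at 0.38 (adjusted p = 0.0356). Among the 7 tested genes of the other BAG and HSP70 co-chaperones, BAG1, a nucleotide exchange factor, rose in 3 of the 4 comparisons at 3 µM, by 0.43 and 0.58 in A549 with azacitidine and decitabine and by 0.57 in H1299 with azacitidine, and fell by 0.51 in H1299 with decitabine. ST13, which links HSP70 to HSP90, fell by 0.24 and 0.37 with 3 µM azacitidine and rose by 0.35 and 0.26 with 3 µM decitabine, in A549 and H1299 in that order. BAG1 and ST13 were picked from their list by the size of their change. In the same order 38.3% and 53.9% of all genes passed with azacitidine, and 25.8% and 30.9% with decitabine.

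HSPE1 is the small lid of the mitochondrial chaperonin. In H1299 it was 9315 and 9665 with vehicle, and with azacitidine 10378 and 10756 at 0.3 µM, 5392 and 6205 at 1 µM and 4088 and 4007 at 3 µM. The 1 µM arrays lay below vehicle and the 3 µM arrays below those at 1 µM. It fell by 0.71 at 1 µM (SE 0.0904, 95% interval -0.90 to -0.52, adjusted p = 3.32e-06) and by 1.22 at 3 µM (SE 0.0904, 95% interval -1.41 to -1.03, adjusted p = 3.65e-10), to 42.7% of vehicle. With decitabine it was 10247 and 9418 at 0.3 µM, 8251 and 9229 at 1 µM and 7678 and 7952 at 3 µM, and at 3 µM, the one dose that passed, it fell by 0.28 (adjusted p = 0.0228). That call was lost without either vehicle array (-0.31 and -0.25) and without either 3 µM decitabine array (-0.25 and -0.30). The GAPDH 3′ to 5′ ratio was 1.21 and 1.18 on the arrays of H1299 with 3 µM azacitidine, against 0.976 and 0.944 with vehicle. The part of RNA integrity in the HSPE1 result was not tested.

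In A549 HSPE1 was 9161 and 8852 with vehicle, 10709.5 and 10314 with azacitidine at 0.3 µM, 8303 and 8142 at 1 µM and 6751 and 8043 at 3 µM. It fell by 0.29 at 3 µM (adjusted p = 0.0152), and the 2 arrays of that group were far apart. Without the lower of them, the first, the difference was -0.16 (adjusted p = 0.25), and without the first vehicle array it was -0.26 (adjusted p = 0.0778). With 3 µM decitabine the arrays were 6988 and 8329.6, both below vehicle, and the difference of -0.24 did not pass (adjusted p = 0.0577). It passed without the second of those arrays, at -0.36 (adjusted p = 0.0133).

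HSPD1 forms the barrel of the same chaperonin. By its brightest probe set the signal ranged over 12845 to 18087 in A549 and 12399 to 16387 in H1299, and none of the 12 differences from vehicle passed. The largest was 0.21, with 1 µM azacitidine in A549 (adjusted p = 0.122). It passed there without the second vehicle array, at 0.34 (adjusted p = 0.0344). In H1299 with 3 µM azacitidine, where HSPE1 fell most, HSPD1 differed by -0.13 (95% interval -0.34 to 0.08). This probe set is among the brightest on the arrays, with 0.175 to 0.458% of probe sets above it. The dimmer HSPD1 probe set differed. It was 5599.5 and 6075 in A549 with vehicle and 4078 and 3855 with 3 µM decitabine. In H1299 it was 6453 and 8025 with vehicle, 4932 and 5123 with 3 µM azacitidine and 4565 and 5095 with 3 µM decitabine. In a limma fit of all kept probe sets it fell by 0.55, 0.51 and 0.57 in these comparisons (adjusted p = 9.51e-05, 4.4e-05 and 4.65e-05) and was 0.15 from vehicle in A549 with azacitidine (adjusted p = 0.214). HSPD1 is thus uncertain: its probe sets disagree in 3 of the 4 comparisons at 3 µM.

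Of the 9 tested genes among the other mitochondrial chaperones and proteases, 5 rose and 0 fell with 3 µM azacitidine in A549 (all genes 38.3%), and 4 rose and 2 fell in H1299 (all genes 53.9%). LONP1, a matrix protease, rose by 0.72 and 1.05, and HSPA9, the mitochondrial HSP70, by 0.68 and 0.85. TRAP1, the mitochondrial HSP90, fell by 0.87 in H1299. With 3 µM decitabine the counts were 0 and 0 in A549 (all genes 25.8%) and 1 and 1 in H1299 (all genes 30.9%). The median of the list was 0.37 and 0.47 with azacitidine, against 0.06 and 0.08 over all genes.

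HSPH1 is an HSP110 protein that exchanges the nucleotide of HSP70. In A549 it was 3814 and 3858 with vehicle, and with decitabine 5140.1 and 4810.1 at 0.3 µM, 4646 and 5475 at 1 µM and 5205 and 5062 at 3 µM. All 6 decitabine arrays lay above vehicle and did not order by dose. It rose by 0.37, 0.39 and 0.42 (at 3 µM SE 0.0671, 95% interval 0.28 to 0.56, adjusted p = 9.99e-05). With azacitidine in A549 the arrays held 4222 and 4088 at 0.3 µM, 3765 and 4054 at 1 µM and 4074 and 4166 at 3 µM, and no dose passed. The dimmer HSPH1 probe set did not follow: at 3 µM decitabine in A549 it differed by -0.04 (adjusted p = 0.861). With the mean of both probe sets the rise in A549 was 0.19 at 3 µM (adjusted p = 0.0621) and 0.23 at 0.3 µM (adjusted p = 0.0571), so of the 3 calls that at 1 µM held there. In H1299 HSPH1 ranged over 4200.0 to 5185, and no difference from vehicle passed by the brightest probe set. The largest, 0.18 with 0.3 µM decitabine (adjusted p = 0.0621), passed after quantile normalization (0.18, adjusted p = 0.041), with the 75th percentile filter (adjusted p = 0.0487), in H1299 alone (adjusted p = 0.0338) and with the mean of both probe sets (0.31, adjusted p = 0.00628). That mean also fell with 3 µM azacitidine in H1299 (-0.25, adjusted p = 0.00778).

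HSPA4 is another HSP110 protein. Its signal ranged over 2267 to 3132 in A549 and 2555 to 3371 in H1299, and no difference from vehicle passed by this probe set. The largest were 0.20 with 0.3 µM decitabine in A549 (adjusted p = 0.0908) and -0.16 with 3 µM azacitidine in H1299 (adjusted p = 0.0583). The latter passed in a fit of H1299 alone (adjusted p = 0.0359) and with the 75th percentile filter (adjusted p = 0.0446), and 1 of the 3 dimmer probe sets fell by 0.52 there (adjusted p = 0.000753). With the mean of all 4 probe sets HSPA4 passed with 1 µM azacitidine in A549 (-0.32, adjusted p = 0.00423), and in H1299 with azacitidine at 1 µM (-0.21, adjusted p = 0.0437) and 3 µM (-0.30, adjusted p = 0.0028) and with 0.3 µM decitabine (0.23, adjusted p = 0.0408). HSPA8, the constitutive HSP70, could be followed only through the 3 probe sets shared with its snoRNA genes. In A549 none of them passed at 3 µM, with differences of 0.14, -0.08 and 0.06 for azacitidine and 0.01, -0.11 and -0.16 for decitabine. In H1299 1 of the 3 fell, the dimmest, from 10399 and 10387 with vehicle to 8595 and 8939 with 3 µM azacitidine and 8053 and 8445 with 3 µM decitabine (-0.24 and -0.33, adjusted p = 0.033 and 0.0107).

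Among 6 other HSP70 and HSP110 genes tested, HSPA13, a microsomal HSP70, rose by 0.78 in A549 and 1.00 in H1299 with 3 µM azacitidine. HSPA14, which sits at the ribosome, fell by 0.49 and 1.01. HSPA2 fell by 1.22 in A549. With 3 µM decitabine in A549 HSPA12A and HSPA4L rose, by 0.87 and 0.64. The counts at 3 µM were 1 higher and 2 lower of 6 and 2 higher and 2 lower of 6 with azacitidine, and 2 higher and 0 lower of 6 and 0 higher and 1 lower of 6 with decitabine, in A549 and H1299 in that order. Of all genes 38.3% and 53.9% passed with azacitidine and 25.8% and 30.9% with decitabine, so with 6 genes these counts lie near the share of all genes. The stress-induced HSPA1A, HSPA1B and HSPA6 were not among the tested genes.

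DNAJB1 is the main HSP40 partner of stress-induced HSP70. In A549 it was 1570.3 and 1585 with vehicle. With azacitidine it was 1688 and 1711 at 0.3 µM, 1209 and 1367 at 1 µM and 1232 and 1223 at 3 µM, and with decitabine 1515 and 1499.7 at 0.3 µM, 1313 and 1352 at 1 µM and 1296 and 1310.2 at 3 µM. At 1 and 3 µM of either drug both arrays lay below both vehicle arrays. It fell by 0.29 and 0.35 with azacitidine (at 3 µM SE 0.0599, 95% interval -0.48 to -0.23, adjusted p = 7.94e-05) and by 0.24 and 0.27 with decitabine (adjusted p = 0.00873 and 0.00209). When each array was centred on its median, which moved the median of all genes by 0.134 at 1 µM azacitidine in A549, the 1 µM falls were -0.16 (adjusted p = 0.163) and -0.20 (adjusted p = 0.109). The fall at 1 µM decitabine was -0.22 (adjusted p = 0.0663) without its first array. The dimmer DNAJB1 probe set also fell with 3 µM azacitidine in A549, by 0.61 (adjusted p = 0.000615), and its difference with 3 µM decitabine was -0.16 (adjusted p = 0.402).

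In H1299 DNAJB1 was 1605 and 1624 with vehicle, and with decitabine 1584 and 1535 at 0.3 µM, 1311 and 1311 at 1 µM and 1248 and 1238 at 3 µM. It fell by 0.29 and 0.37 at 1 and 3 µM of decitabine (at 3 µM SE 0.0599, 95% interval -0.49 to -0.24, adjusted p = 7.91e-05). With azacitidine it was 1908 and 1884 at 0.3 µM, 1658 and 1718 at 1 µM and 1538 and 1549 at 3 µM, highest at the lowest dose. It rose by 0.23 at 0.3 µM (adjusted p = 0.0292), a call lost without any 1 of the 4 arrays (0.22 to 0.24), and did not pass at 1 or 3 µM. DNAJA1, an HSP40 that binds unfolded clients itself, ranged over 5525 to 7172 in A549 and 4124 to 5533 in H1299. Its 1 call against vehicle by the brightest probe set was a rise of 0.28 with 0.3 µM azacitidine in H1299 (adjusted p = 0.0302). That call was lost without the first vehicle array (0.19) and without either 0.3 µM array (0.33 and 0.23). With the mean of both probe sets DNAJA1 also rose with 1 µM decitabine in A549 (0.19, adjusted p = 0.0236). In H1299 that mean rose with decitabine at 0.3 and 1 µM (0.19 and 0.18, adjusted p = 0.0196 and 0.0215). Of 12 other HSP40 genes tested, DNAJB2 rose by 0.82 with 3 µM decitabine in H1299, and with 3 µM azacitidine it rose 4.01-fold. DNAJB5 fell by 0.69 with 3 µM azacitidine and rose by 0.89 with 3 µM decitabine in A549. DNAJB2 and DNAJB5 were picked from that list by the size of their change. At 3 µM 38.3% and 53.9% of all genes passed with azacitidine, and 25.8% and 30.9% with decitabine, in A549 and H1299.

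**Figure D3:**
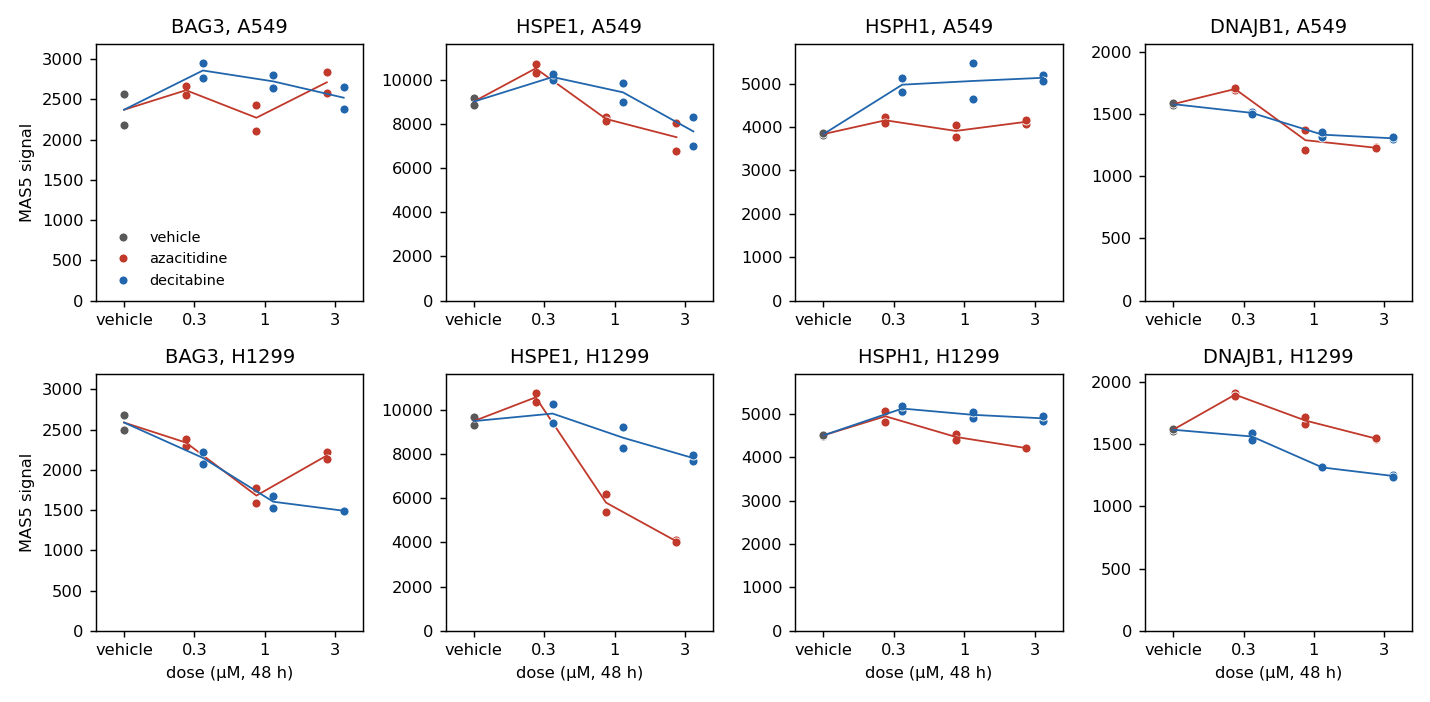
Deposited MAS5 signal of BAG3, HSPE1, HSPH1 and DNAJB1 (columns) against dose in µM in A549 (top) and H1299 (bottom), with a point for each array, a line through the group means, and vehicle, azacitidine and decitabine in grey, red and blue. HSPE1 drops to 4088 and 4007 with 3 µM azacitidine in H1299, BAG3 is below vehicle on all 12 treated H1299 arrays, and HSPH1 in A549 is above vehicle on all 6 decitabine arrays.

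HSP90AA1 is the stress-inducible cytosolic HSP90. It ranged over 12732 to 17167 in A549 and 12759 to 17125 in H1299, and none of its 12 differences from vehicle passed. They lay between 0.01 and 0.23, and at 3 µM the 95% intervals were -0.17 to 0.27 and -0.13 to 0.31 in A549 and -0.21 to 0.23 and -0.19 to 0.25 in H1299, with azacitidine first. Between 0.0898 and 0.444% of probe sets were brighter on an array, and a signal this near the top of the range may understate change. The difference with 1 µM azacitidine in H1299 (0.23) passed without the second vehicle array, at 0.35 (adjusted p = 0.0444), and that with 3 µM passed after quantile normalization, at 0.14 (adjusted p = 0.0102). Of its 3 other probe sets, the dimmest fell by 0.25 with 3 µM azacitidine in H1299 (adjusted p = 0.0214), and the other two did not pass at 3 µM. HSP90AB1, the constitutive HSP90, fell by 0.68 with 3 µM azacitidine in H1299 (adjusted p = 5.97e-06). The co-chaperone STIP1, which bridges HSP70 and HSP90, rose by 0.35 and 0.40 with 3 µM azacitidine in A549 and H1299, and by 0.60 with 3 µM decitabine in H1299. CACYBP fell by 0.25 and 0.58 with 3 µM azacitidine in A549 and H1299, and by 0.42 with 3 µM decitabine in H1299. HSP90AB1, STIP1 and CACYBP were picked from a list by the size of their change. Of all genes 38.3% and 53.9% passed with 3 µM azacitidine in A549 and H1299, and 30.9% with 3 µM decitabine in H1299.

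The matched doses compare the ribonucleoside with the deoxyribonucleoside directly, in 6 pairs of groups with p adjusted over all genes in each. Azacitidine left HSPB1 lower than decitabine in both lines and HSPE1 lower in H1299, and left DNAJB1 higher in H1299. Over the 3 doses the members that passed were 0 higher and 3 lower of 9 in A549 (all genes 54.4%) and 2 higher and 4 lower of 9 in H1299 (all genes 53.9%). In A549 HSPB1 differed by -0.82 (SE 0.0692, 95% interval -0.96 to -0.67, adjusted p = 3.19e-09), with -0.17 at 0.3 µM (not passed), -0.86 at 1 µM and -1.42 at 3 µM. In H1299 it differed by -1.54 (SE 0.0692, 95% interval -1.68 to -1.40, adjusted p = 9.65e-14), and by -1.06, -1.42 and -2.14 at the 3 doses, all passed. Every azacitidine array of H1299 lay below every decitabine array of that line. The gap at 3 µM is a factor of 4.4 on the scale of log2(signal + 32).

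HSPH1 was lower with azacitidine in A549, with a difference of -0.31 over the doses (SE 0.0387, 95% interval -0.39 to -0.23, adjusted p = 7.75e-07), and no azacitidine array overlapped with a decitabine array. At 0.3 µM (-0.26, adjusted p = 0.0258) the call was lost without any 1 of the 4 arrays, at -0.31 to -0.21. In H1299 the difference was -0.14 over the doses (adjusted p = 0.0042) and -0.22 at 3 µM (adjusted p = 0.00941), and the arrays of the drugs overlapped. The value at 3 µM was -0.10 after quantile normalization (adjusted p = 0.187) and -0.20 without the second decitabine array (adjusted p = 0.0595). HSPE1 differed by -0.48 in H1299 (SE 0.0522, 95% interval -0.59 to -0.37, adjusted p = 1.28e-07), through -0.59 at 1 µM and -0.94 at 3 µM, while 0.10 at 0.3 µM did not pass. DNAJB1 in H1299 was higher with azacitidine at each dose, by 0.28, 0.36 and 0.31, and over the doses by 0.31 (SE 0.0346, 95% interval 0.24 to 0.38, adjusted p = 1.49e-07). The value at 0.3 µM was 0.27 (adjusted p = 0.05) without the first azacitidine array and 0.25 (adjusted p = 0.0513) without the second decitabine array. BAG3 in H1299 was higher with azacitidine over the doses, by 0.24 (adjusted p = 0.00041), through 3 µM (0.54, SE 0.088, 95% interval 0.35 to 0.72, adjusted p = 2.56e-05).

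HSPA4 was lower with azacitidine, with differences of -0.11 in A549 (adjusted p = 0.0234) and -0.13 in H1299 (adjusted p = 0.00877), and arrays overlapped in both. After quantile normalization the H1299 difference was -0.09 (adjusted p = 0.0572), and with median centring the A549 difference was -0.07 (adjusted p = 0.262). In a fit of A549 alone its adjusted p was 0.0584. The A549 call was lost without any 1 of 5 arrays: the first at 0.3 µM or the second at 1 µM azacitidine (-0.10 and -0.08), or the second at 0.3 µM, the first at 1 µM or the second at 3 µM decitabine (-0.11, -0.11 and -0.09). For HSP90AA1, HSPD1 and DNAJA1 no difference between the drugs passed over the doses by the brightest probe set. The 95% intervals were -0.16 to 0.09, -0.03 to 0.21 and -0.17 to 0.01 in A549 and -0.05 to 0.21, -0.05 to 0.19 and -0.07 to 0.11 in H1299. With the mean of all kept probe sets HSPD1 in A549 was higher with azacitidine, by 0.23 over the doses (adjusted p = 0.000278) and 0.41 at 3 µM (adjusted p = 0.000216), and its dimmer probe set differed by 0.37 over the doses. DNAJA1 then passed with -0.12 in A549 (adjusted p = 0.00245) and -0.10 in H1299 (adjusted p = 0.0104), and after quantile normalization HSP90AA1 passed in A549 with -0.07 (adjusted p = 0.0185). In A549 no difference passed for DNAJB1 (-0.06 to 0.08), BAG3 (-0.20 to 0.01) and HSPE1 (-0.17 to 0.04).

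By single dose, the members that passed in A549 were 0 higher and 1 lower of 9 at 0.3 µM (all genes 5.67%), 0 higher and 4 lower of 9 at 1 µM (all genes 34.3%) and 0 higher and 2 lower of 9 at 3 µM (all genes 50.4%). In H1299 they were 1 higher and 1 lower of 9 (all genes 6.37%), 1 higher and 2 lower of 9 (all genes 33.9%) and 2 higher and 4 lower of 9 (all genes 56.3%) at those doses. At 1 µM in A549 the 4 lower members were HSPB1, HSPH1 (-0.37), BAG3 (-0.26) and HSPA4 (-0.22). The last 2 calls rested on single arrays. Without the second azacitidine array BAG3 differed by -0.16 (adjusted p = 0.274) and HSPA4 by -0.11 (adjusted p = 0.332), and without the first decitabine array by -0.22 (adjusted p = 0.155) and -0.20 (adjusted p = 0.1). HSPA4 was also lost without the second decitabine array, at -0.24 (adjusted p = 0.0556).

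**Figure D4:**
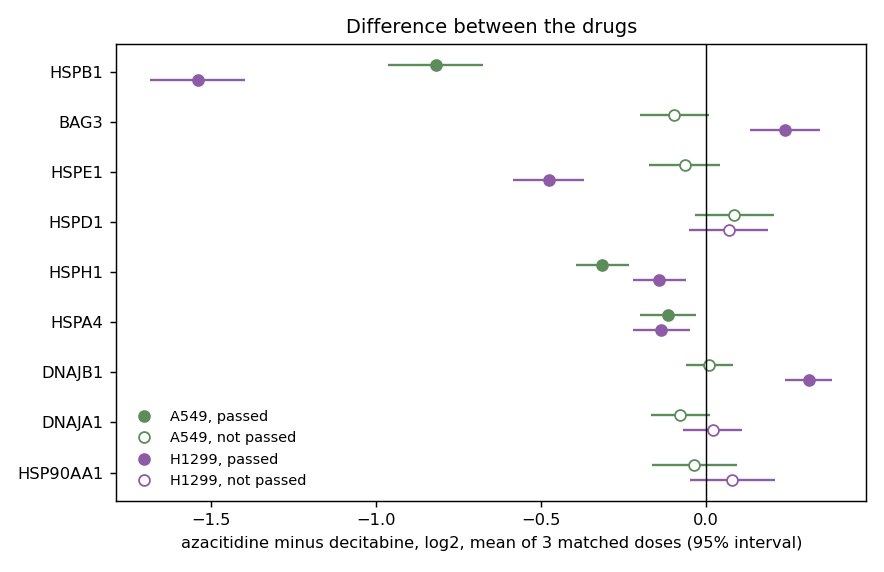
Difference between azacitidine and decitabine in log2 signal, as the mean over the 3 matched doses, for the 9 measured members in A549 (green) and H1299 (purple), with 95% intervals from limma; filled points passed at an adjusted p under 0.05. HSPB1 stands furthest from 0 in both lines (-0.82 and -1.54), and the intervals of HSPD1 and HSP90AA1 cross 0 in both for these brightest probe sets, whereas the mean of the HSPD1 probe sets gave 0.23 in A549.

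The difference between 3 and 0.3 µM of a drug uses no vehicle arrays. With azacitidine the members that passed were 0 higher and 4 lower of 9 in A549 (all genes 34.4%) and 0 higher and 7 lower of 9 in H1299 (all genes 55.5%), and with decitabine 0 higher and 2 lower of 9 in A549 (all genes 9%) and 0 higher and 3 lower of 9 in H1299 (all genes 9.93%). These shares of all genes count both directions. The share that was lower was 13.4% and 21.8% with azacitidine and 3.28% and 4.26% with decitabine, in A549 and H1299. HSPE1 fell with dose in all 4 series, by 0.51 and 0.41 in A549 and by 1.38 and 0.33 in H1299, with azacitidine first. DNAJB1 also fell in all 4, by 0.46, 0.20, 0.29 and 0.32 in that order. With decitabine in H1299 HSPE1 lost its call after quantile normalization (-0.23, adjusted p = 0.109) and median centring (-0.34, adjusted p = 0.068). With decitabine in A549 DNAJB1 lost its call with median centring (-0.25, adjusted p = 0.072) and the mean of both probe sets (-0.21, adjusted p = 0.0669). A fit of A549 alone lost it too (adjusted p = 0.101). HSPB1 fell with azacitidine in both lines, by 1.17 and 1.10, and showed no slope that passed with decitabine (0.08 and -0.03). BAG3 fell by 0.52 with decitabine in H1299. With azacitidine in H1299 HSPA4, HSPH1, DNAJA1 and HSPD1 fell too, by 0.31, 0.23, 0.26 and 0.25, in a comparison in which the median of all genes went up by 0.117. After quantile normalization those 4 were -0.21, -0.05, -0.08 and 0.02, and HSPA4 alone kept its call, so HSPD1 changed its sign.

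Several of the smaller dose differences rested on single arrays. DNAJB1 with decitabine in A549 (adjusted p = 0.0341) was lost without any 1 of its 4 arrays, at -0.21 to -0.20. HSPE1 with decitabine in A549 was -0.39 (adjusted p = 0.0569) without the second 0.3 µM array and -0.28 (adjusted p = 0.142) without the first 3 µM array, which its label marks as a repeat. HSPE1 with decitabine in H1299 was -0.27 without the first 0.3 µM array and -0.30 and -0.35 without either 3 µM array (adjusted p = 0.204, 0.151 and 0.0822). DNAJA1 with azacitidine in A549 fell by 0.28, and was -0.24 without the second 0.3 µM array or the first 3 µM array (adjusted p = 0.0647 and 0.0646). HSPD1 in H1299 was lost without any 1 of its 4 arrays, at -0.29 to -0.21. HSPH1 and DNAJA1 in H1299 were -0.19 and -0.21 without the second 0.3 µM azacitidine array (adjusted p = 0.0637 and 0.0664).

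Between the lines in vehicle, 1 higher and 2 lower of 9 members passed (all genes 65.2%). HSPB1 was the extreme, as given above. DNAJA1 was lower in H1299, at 4124 and 4693 against 5825 and 6474 in A549 (-0.48, adjusted p = 8.31e-06), and HSPH1 was higher, at 4493 and 4513 against 3814 and 3858 (0.23, adjusted p = 0.00505). The other 6 members did not pass by their brightest probe sets, with differences from -0.06 to 0.13. Dimmer probe sets differed more: 0.71 for HSP90AA1, -1.17 for HSPA4 and 0.30 for HSPD1, all passed in the fit of all kept probe sets, while the other 2 dimmer HSPA4 probe sets passed in the other direction (0.24 and 0.39). DNAJB1 passed with the mean of its probe sets (0.20, adjusted p = 0.0185). Of the related small heat shock proteins, HSPB8 was lower in H1299 (difference -2.89), and so was CRYAB (-0.72). Centring each array on its median moved the median of all genes by 0.152 in this comparison, and HSPA4 (0.27) and BAG3 (0.28) then passed as well.

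The responses themselves were compared between the lines by interaction terms. For 3 µM azacitidine 2 higher and 2 lower of 9 members passed (all genes 31.3%). HSPE1 fell more in H1299 (-0.93, SE 0.128, 95% interval -1.20 to -0.67, adjusted p = 1.1e-05) and HSPB1 fell more in A549 (0.90 for H1299 minus A549, SE 0.17, 95% interval 0.54 to 1.25, adjusted p = 0.000378). BAG3 gave -0.44 (adjusted p = 0.0103) and DNAJB1 0.29 (adjusted p = 0.0122). The BAG3 term was -0.32 (adjusted p = 0.0671) without the second A549 vehicle array and -0.37 (adjusted p = 0.0522) without the first A549 array with 3 µM azacitidine. The DNAJB1 term was 0.26 (adjusted p = 0.0974) with median centring. For 3 µM decitabine 1 higher and 2 lower of 9 passed (all genes 17.3%): HSPB1 (1.61, SE 0.17, 95% interval 1.26 to 1.96, adjusted p = 1.07e-06), BAG3 (-0.87, SE 0.124, 95% interval -1.13 to -0.61, adjusted p = 5.03e-05) and HSPH1 (-0.30, adjusted p = 0.0332). The HSPH1 term was lost without any 1 of 7 of the 8 arrays in it, at -0.32 to -0.28, and kept only without the second A549 array with 3 µM decitabine. With the mean of both HSPH1 probe sets it was -0.10 (adjusted p = 0.559), and with median centring -0.27 (adjusted p = 0.178). For the difference between the drugs over the doses 3 higher and 2 lower of 9 passed (all genes 40.7%), with HSPB1 at -0.72, HSPE1 at -0.41, BAG3 at 0.34, DNAJB1 at 0.30 and HSPH1 at 0.17. With the mean of both probe sets the last was -0.03 and did not pass.

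**Figure D5:**
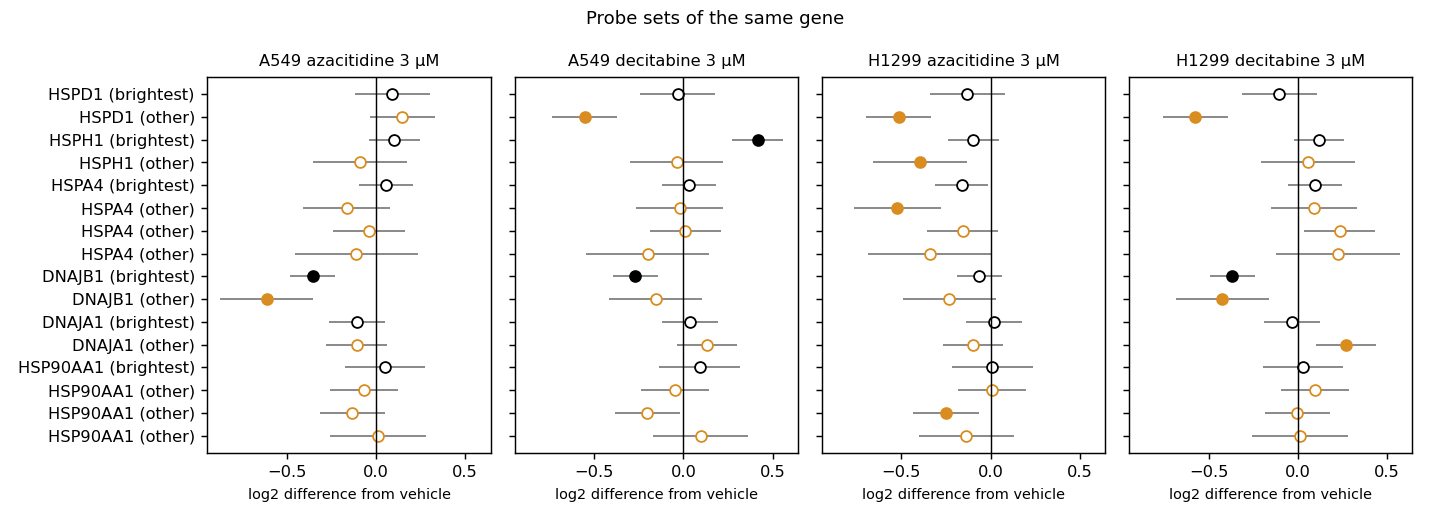
Log2 difference from vehicle at 3 µM, with 95% intervals, for every probe set of the 6 members that have more than one, in a panel for each line and drug; black is the brightest probe set of a gene, orange a dimmer one, and filled points passed at an adjusted p under 0.05. The dimmer HSPD1 probe set passed in 3 panels (-0.55, -0.51 and -0.57) in which the brightest did not.

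Where a member had several probe sets, as 6 of the 9 did, their differences at 3 µM did not always agree. HSPB1, BAG3 and HSPE1, which carried the largest changes, have 1 probe set each, so their values could not be checked against another. In H1299 with 3 µM azacitidine a dimmer probe set of HSPA4, HSPH1, HSPD1 and HSP90AA1 fell while the brightest did not pass, and 6 members passed, not 3, when all kept probe sets of a gene were averaged. Of all 8024 genes 4405 passed there with the averages, and 4324 with the brightest probe sets. A dimmer DNAJA1 probe set rose by 0.27 with 3 µM decitabine in H1299 (adjusted p = 0.017), where the brightest was at -0.03. No pair of probe sets of a member passed in opposite directions at 3 µM. The ACTB 3′ to 5′ ratio was 4.90 and 5.36 in A549 with 3 µM azacitidine against 3.40 and 3.08 with vehicle, and its part in these differences was not tested.

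HSF1, the regulator of the heat shock response, was above the array median on all 28 arrays by its brighter probe set. It rose by 0.71 with 3 µM azacitidine in A549 (SE 0.241, adjusted p = 0.0244), and its differences of -0.11, 0.26 and 0.07 in the other 3 comparisons at 3 µM did not pass. In that A549 comparison HSBP1, which binds and restrains HSF1, fell by 0.36 (adjusted p = 0.027), and no member rose. Of 12 tested subunits of the cytosolic chaperonin TRiC and of prefoldin, 2 rose and 0 fell in A549 and 1 rose and 4 fell in H1299 with 3 µM azacitidine, and PFDN2 rose by 0.86 and 1.03. In those comparisons 38.3% and 53.9% of all genes passed. With 3 µM decitabine 1 rose and 1 fell in each line (all genes 25.8% in A549 and 30.9% in H1299). Of 18 endoplasmic reticulum chaperones and their regulators, 1 rose and 8 fell in A549 and 6 rose and 7 fell in H1299 with 3 µM azacitidine, beside the same shares of all genes. The transcription factor XBP1 rose by 1.51 and 1.98, the HSP70 of that compartment, HSPA5, rose by 1.62 in H1299, and the disulfide isomerase PDIA4 fell by 1.46 in A549. With decitabine at 3 µM 1 rose and 0 fell in A549, and 1 rose and 2 fell in H1299 (all genes 25.8% and 30.9%).

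Genes of the integrated stress response, which slows translation and induces ATF4, were described beside the members. Of 17 tested, 16 rose and 0 fell with 3 µM azacitidine in each line (all genes 38.3% in A549 and 53.9% in H1299). Their median was 1.12 in A549 and 1.60 in H1299, against 0.06 and 0.08 over all genes. DDIT3 rose by 4.55 in H1299 and ATF3 by 2.75 in A549. With 3 µM decitabine 1 rose and 7 fell in A549, and 5 rose and 8 fell in H1299 (all genes 25.8% and 30.9%). These lists were written with earlier results of these data known, and their counts are a description.

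Genes whose pattern over the 28 arrays was most like that of a member differed from member to member. For HSPE1 it was FDPS, an enzyme of the cholesterol pathway, with a Pearson correlation of 0.944. FDPS fell by 0.76 and 1.12 with azacitidine at 1 and 3 µM in H1299. For HSPH1 it was QPRT, an enzyme of NAD synthesis (0.896), which rose by 1.87, 2.25 and 1.81 with decitabine in A549. For HSPD1 it was PTGES3, the HSP90 co-chaperone p23 (0.898), and for HSP90AA1 the ribosomal protein gene RPS19 (0.907). Neither PTGES3 nor RPS19 differed by more than 0.32 from vehicle at any dose. HSPD1 and HSP90AA1 themselves did not pass against vehicle by their brightest probe sets. The signals of PTGES3 and RPS19 are bright and can differ between the 2 arrays of a group. With 1 µM azacitidine in A549 they were 12704.7 and 14414.9 for PTGES3, and 17804.3 and 21434.5 for RPS19. The part of such spread in these correlations was not tested. For BAG3 it was PEMT, a methyltransferase of phospholipid synthesis (0.870), through H1299 (0.879) and not through A549 (-0.280). For DNAJB1, HSPA4 and DNAJA1 the highest values were lower, with DEK at 0.782, B3GALT4 at 0.794 and ATP5PF at 0.740. Against the mean of the 9 members, in which HSPB1 has the widest range, the 5 genes with the highest values were FSCN1, GAS2L1, KANK2, ANXA6 and IGFLR1, between 0.880 and 0.902. The genes were picked as the highest among the tested genes, and all of these values are over the same 28 arrays and share the vehicle means.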

How the data were processed

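Per the submitters' processing notes the deposited intensity is MAS5 signal on a linear scale, and its version and scaling target are not given in the sources used here. A supplied probe annotation named a single gene for 19070 of 22277 probe sets. The mean of each group on log2(signal + 32) was modelled over all 28 arrays with limma 3.58.1 (in R 4.3.3, with version 1.17.8 of data.table), with an intensity-dependent variance trend and 14 residual degrees of freedom. Tests were two-sided and Benjamini-Hochberg adjusted over 8024 genes within each of 28 comparisons, at 0.05. The script was tested on simulated data. Members and gene lists were chosen with earlier results of these data known. All members are named. From other lists the 3 called genes with the largest change in each main comparison could be named, besides HSF1, and for likeness the gene with the highest correlation. Alternatives were other scalings, pseudocounts, filters and fits, a fold threshold and leaving out each array. A fit of all 13297 kept probe sets was added after seeing the data. Plots used matplotlib 3.10.9.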

Additional observations from a re-analysis of the deposited data

Results flagged for a closer look

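The response of a member differed between the lines, by an interaction term of the limma fit, in 12 cases, each given as H1299 minus A549 on the log2 scale. Of all genes 31.3% passed such a term for 3 µM azacitidine, 17.3% for 3 µM decitabine and 40.7% for the difference between the drugs. For 3 µM azacitidine these were HSPB1 (0.90), DNAJB1 (0.29), BAG3 (-0.44) and HSPE1 (-0.93). HSPB1 and DNAJB1 fell in A549 and fell less or did not pass in H1299, whereas HSPE1 fell further in H1299 and BAG3 fell in H1299 and did not pass in A549. For 3 µM decitabine they were HSPB1 (1.61), which rose in H1299 and did not pass in A549, BAG3 (-0.87), which fell in H1299 and did not pass in A549, and HSPH1 (-0.30), which rose in A549 and did not pass in H1299. For azacitidine minus decitabine over the 3 doses they were HSPB1 (-0.72), HSPE1 (-0.41), BAG3 (0.34), DNAJB1 (0.30) and HSPH1 (0.17). Some terms were unstable. Over 18 alternatives each, the decitabine term of HSPH1 was lost in 11, and the azacitidine terms of BAG3 and DNAJB1 in 3 and 2. The HSPH1 term of the drug difference was -0.03 with the mean of both probe sets and did not pass. All groups hold 2 arrays, so no array could be set apart from the others of its group by a test.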

How the results depend on the processing

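Over the alternatives, 86 calls of members were checked 1475 times, and 1311 checks kept direction and call, 162 lost the call and 2 changed sign. Smaller and larger pseudocounts, the filter at the 75th percentile and the replicate block each kept 86 of 86 calls, quantile normalization 78, median centring 72, the mean of all kept probe sets 78 and a fit without trend 80. Asking for a log2 difference of at least 0.5 left 1 member at 3 µM azacitidine in A549, 0 at 3 µM decitabine in A549, 1 and 2 in H1299, and 1 in each line between the drugs over the doses. Of all 8024 genes it left 1618, 1031, 2921 and 1306 at 3 µM in that order, and 1134 and 1220 between the drugs. The mean of all kept probe sets gave 6 members at 3 µM azacitidine in H1299 (3 with the brightest) and 5 between the drugs in A549 (3 with the brightest). Of all 8024 genes 4405 and 4453 passed there with the mean, and 4324 and 4365 with the brightest.

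Leaving out 1 array gave 2 to 3 members at 3 µM in A549 with either drug, 1 to 3 with azacitidine and 3 with decitabine in H1299, and 2 to 4 and 6 between the drugs in A549 and H1299. The count of 1 came without the second array of H1299 at 3 µM azacitidine. Whether array numbers pair the samples could not be told. Deviations of same-numbered arrays correlated at -0.244 to 0.263 in A549 and -0.0798 to 0.157 in H1299. Of 21 pairs of groups in a line, 9 in A549 and 3 in H1299 exceeded 0.1. Such values cannot exclude paired cultures, and the replicate block rests on the number alone. With the replicate block 3, 3, 3 and 4 members passed at 3 µM, in A549 with azacitidine and decitabine and then in H1299, and 3 and 6 between the drugs, where the added call was HSPE1 with decitabine in A549 (-0.24, adjusted p = 0.0386). Of all 8024 genes 3118, 2110, 4348 and 2517 passed with the block at 3 µM, and 4423 and 4356 between the drugs.

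Signs turned under quantile normalization in H1299 for HSPD1 at 1 µM azacitidine (-0.12), HSP90AA1 and HSPD1 between the drugs at 3 µM (0.12 and 0.11), HSPD1 for 3 minus 0.3 µM azacitidine (0.023), and HSP90AA1 between lines at 3 µM azacitidine (0.18). With the mean of all kept probe sets they turned for DNAJA1 between the drugs in H1299 at 3 µM (-0.16) and over the doses (-0.10), and for HSPH1 between the lines of the drug difference (-0.027). The cause was not tested. Median centring moved the median of all genes by 0.104 to 0.152 in size in 5 comparisons. Arrays give no counts, so 2 per group limit the precision, and the brightest probe sets may understate change.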
